A study of Mus musculus with 6 samples.

Results

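The T-box genes encode transcription factors that share the T-box, a DNA-binding domain first described in Brachyury. In ChIP-seq peak lists from mouse cardiac neural crest cells, 10 members of the family were followed: Tbx2, Tbx3, Tbx4, Tbx5, Tbx6, Tbx15, Tbx18, Tbx20, Tbr1 and Eomes. Peaks were taken as belonging to a gene where they lay within 1 kb of either annotated end, in the gene body, or nearest to that gene among protein-coding genes and within 100 kb of it. The 10 genes are among 21776 protein-coding genes of the RefSeq table of build GRCm38.p6, the same assembly as mm10. By that rule they drew 25 of 31873 peaks of CHD7 library 1 and 21 of 26927 of CHD7 library 2. From the H3K27ac libraries they drew 18 of 24283 and 12 of 22686 peaks, and from the input libraries 0 of 451 and 0 of 512. Tbx1 is given with the remaining T-box genes.

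The cells came from crosses of Wnt1-Cre2 males with mTmG females and were sorted as GFP-positive cells from pharyngeal arches 3 to 6 at E10.5. Wnt1-Cre2 drives recombination in the neural crest lineage, and the mTmG reporter then turns from red to green fluorescence, so the sort holds whatever cells of these arches descend from recombined cells. Chromatin was precipitated with an antibody to CHD7, a chromatin remodelling ATPase whose human gene is mutated in CHARGE syndrome, or to H3K27ac, the acetylation of histone H3 lysine 27 that marks active promoters and enhancers, and input chromatin, which no antibody enriched, was sequenced beside them. All 3 groups share this genotype and stage, and each has 2 libraries. The sources used here do not say whether the libraries of a group came from separate embryos or pools, so their spread may be technical.

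T-box factors act in overlapping domains of the embryo. Tbx2 and Tbx3 are mainly repressors and shape the outflow tract and the atrioventricular canal of the heart, Tbx5 and Tbx20 drive cardiac development, and Tbx18 marks the proepicardium and the sinus node. Tbx4 and Tbx5 act in the developing hindlimb and forelimb, Tbx15 patterns skeleton and skin, and Tbx6 directs paraxial mesoderm. Tbr1 and Eomes belong with Tbx21 to one branch of the family and are known from cortical neurons and their progenitors, and Eomes also from early mesoderm and endoderm.

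A marker check set the frame for these genes. Of 14 neural crest markers, CHD7 lay within 1 kb of an end of 3 (Sox9, Snai2 and Ets1) and H3K27ac of 3 (Sox9, Twist1 and Msx2), while 44.2% and 47.6% of all protein-coding genes carry these marks there. By any assignment, CHD7 regions were found at 10 of the 14 and H3K27ac regions at 6, against 55.6% and 56.6% of all protein-coding genes. Sox10, a defining neural crest gene, had neither, nor had Prrx1, Dlx5 and Hand2. Within 1 kb of an end, CHD7 lay at 0 of 9 cardiomyocyte, 3 of 7 endothelial and 1 of 7 pharyngeal epithelium markers. It lay there at 2 of 6 blood and 1 of 6 paraxial mesoderm and muscle markers. H3K27ac lay there at 0, 0, 1, 2 and 1 of the same lists, the blood genes being Spi1 and Klf1. By any assignment, these lists had CHD7 at 1, 4, 2, 4 and 2 genes and H3K27ac at 0, 3, 3, 4 and 2. What other cells contribute to the marks at T-box genes was not tested. Fold is the enrichment at the summit given by the authors' peak caller, and it is used below to describe peaks within a list, not to compare the antibodies. Peak lists carry no read counts, and the depth of the libraries is therefore unknown.

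None of the promoter windows of the family with a sequence at hand was touched by a peak of any library. RefSeq promoter windows, from 250 bases before to 50 bases after a transcription start, covered 6 of the 10 genes (Tbr1, Tbx6, Tbx20, Tbx18, Eomes and Tbx4). All 6 were free of peaks. The windows of Tbr1 (from 61804203) and Tbx4 (from 85896515) lay inside the annotated genes, which begin at 61802863 and 85886367. The annotated starts of Tbr1 and Tbx4 were thus not covered. Of all 32851 windows, 23.8% and 23.1% were overlapped by a peak of CHD7 libraries 1 and 2, and 28.6% and 27.6% by a peak of H3K27ac libraries 1 and 2. The 4 sequences shown are those that hold a motif searched for, with the 250 bases before the start read 5′ to 3′ on the strand of the gene, from RefSeq GRCm38.p6. Capitals mark TAATTA, a core that many homeodomain factors bind, and CCAAT or its reverse complement, the NF-Y box.
Tbr1, chr2:61804203-61804452, plus strand: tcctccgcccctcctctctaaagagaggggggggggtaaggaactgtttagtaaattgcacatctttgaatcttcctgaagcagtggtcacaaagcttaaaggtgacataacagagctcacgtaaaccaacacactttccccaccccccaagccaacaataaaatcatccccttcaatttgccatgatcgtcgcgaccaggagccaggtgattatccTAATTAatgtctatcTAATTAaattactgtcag
Eomes, chr9:118477939-118478188, plus strand: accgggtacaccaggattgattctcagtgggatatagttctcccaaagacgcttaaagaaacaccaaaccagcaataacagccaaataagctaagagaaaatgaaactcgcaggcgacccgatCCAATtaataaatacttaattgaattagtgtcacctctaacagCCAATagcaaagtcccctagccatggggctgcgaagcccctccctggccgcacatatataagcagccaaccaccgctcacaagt
Tbx18, chr9:87731261-87731510, minus strand: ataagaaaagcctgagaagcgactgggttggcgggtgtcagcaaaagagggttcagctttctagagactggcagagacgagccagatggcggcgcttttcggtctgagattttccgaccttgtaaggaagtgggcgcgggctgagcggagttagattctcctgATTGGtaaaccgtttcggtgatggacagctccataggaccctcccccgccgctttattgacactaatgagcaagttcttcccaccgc
Tbx6, chr7:126781233-126781482, plus strand: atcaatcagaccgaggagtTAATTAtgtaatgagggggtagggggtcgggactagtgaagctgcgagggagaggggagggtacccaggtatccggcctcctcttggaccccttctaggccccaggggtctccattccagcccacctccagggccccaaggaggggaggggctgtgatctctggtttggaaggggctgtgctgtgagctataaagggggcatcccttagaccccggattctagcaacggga

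In these 250 bases, TAATTA stood at 2 places before Tbr1 and at 1 before Tbx6, and CCAAT on either strand at 2 places before Eomes and at 1 before Tbx18. Searched on both strands, TAATTA is held by 4.84% and CCAAT by 33.8% of the upstream stretches of all windows. The T-box site AGGTGTGA, held by 1.12% of them, was in none of the 6. The motifs were chosen after the peak data had been seen, and a match is one of letters, not a binding site. The windows held 26 CpG dinucleotides at Tbx20, 15 at Tbx18, 10 at Eomes, 8 at Tbx4 and 7 each at Tbr1 and Tbx6. The median was 23 CpG in windows with CHD7 in both libraries and 4 in windows with CHD7 in neither. Tbx20, with 26, lay above the median of the CHD7-bearing windows and carried no CHD7.

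For the rest of the account, a region is the merged extent of overlapping peaks with a peak in both libraries of a group. The family had 11 CHD7 regions and 11 H3K27ac regions. CHD7 regions were assigned to 7 of the 10 genes, with 3 at Eomes, 2 each at Tbx4 and Tbr1, and 1 each at Tbx2, Tbx3, Tbx6 and Tbx18, while Tbx5, Tbx15 and Tbx20 had none. Over all protein-coding genes, 55.6% had an assigned CHD7 region. H3K27ac regions were also assigned to 7 genes, with 3 at Tbx4, 2 each at Tbx3 and Tbr1, and 1 each at Tbx2, Tbx5, Tbx6 and Tbx18, while Tbx15, Tbx20 and Eomes had none. Over all protein-coding genes, 56.6% had one. No T-box region overlapped an input peak, where 1.46% of all CHD7 and 0.912% of all H3K27ac regions do.

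**Figure D1:**
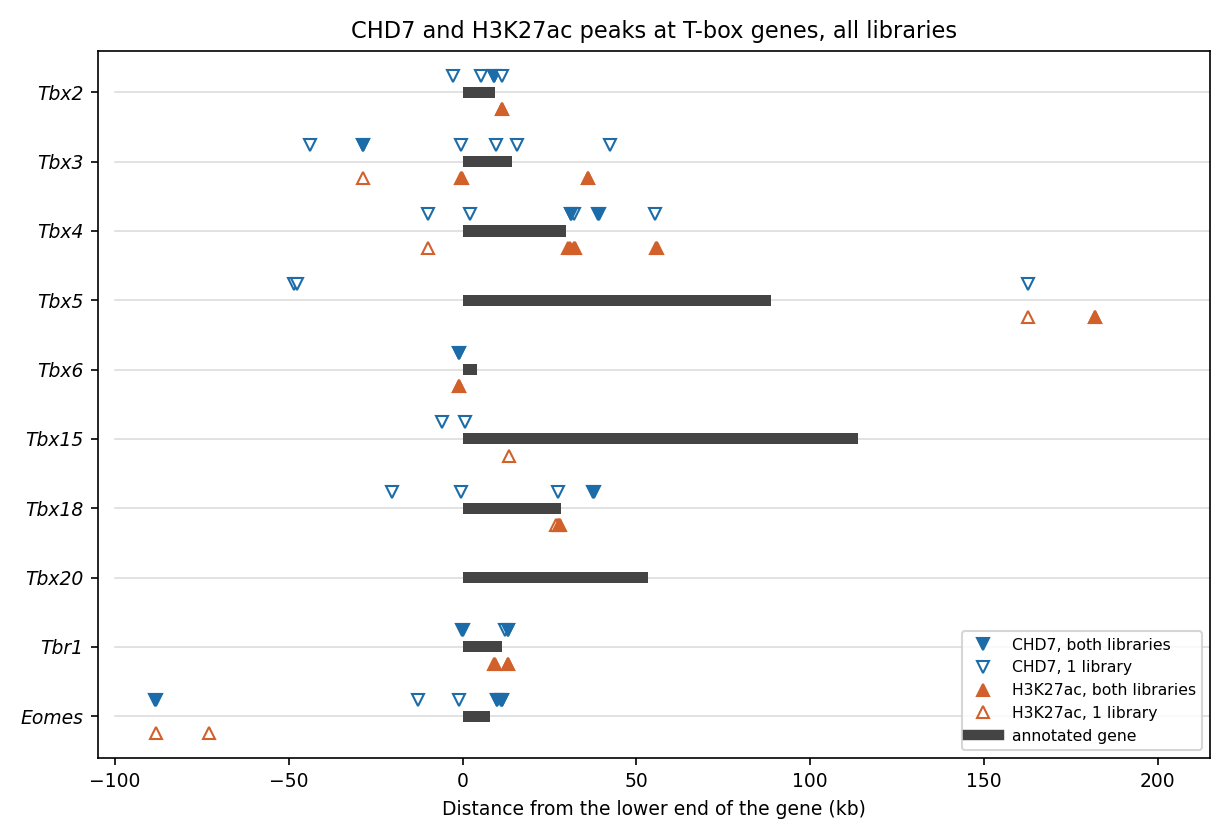
Peaks of all CHD7 libraries (blue, above the line) and H3K27ac libraries (orange, below the line) at the 10 T-box genes, by distance in kb from the lower annotated end of each gene (the end with the smaller coordinate), with the gene drawn as a bar to scale. Filled symbols overlap a peak of the other library of the same antibody, and open symbols do not; Tbx20 has no peak, and filled symbols of both marks meet beyond the upper ends of Tbr1 and Tbx4 and below Tbx6.

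Within 1 kb of a gene end, CHD7 regions lay at 3 of the 10 T-box genes (Tbx2, Tbx6 and Tbr1), where 44.2% of all protein-coding genes have one. H3K27ac regions lay there at 4 of the 10 (Tbx3, Tbx4, Tbx6 and Tbx18), against 47.6% of all. Tbx6 alone had both, against 39.3% of all protein-coding genes. With 10 genes these counts are a description, and no test of the list was made. Taken library by library, CHD7 library 1 had a boundary peak at 7 of the 10 genes and library 2 at 4, against 51.1% and 49.1% of all genes, and each H3K27ac library at 4, against 51.3% and 49.8%. The CHD7 count thus rested on which library was read, since 4 of the 7 genes in library 1 (Tbx3, Tbx15, Tbx18 and Eomes) had no matching peak in library 2. The Tbx18 peaks of the CHD7 libraries lay at opposite ends of the gene.

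Of the pair of genes on chromosome 11, Tbx2 had CHD7 across its upper end. Its region (11, 85841587 to 85841993) had folds of 2.53 and 2.2998 in libraries 1 and 2 and overlapped no H3K27ac peak of either library. A mean fold of 2.42 ± 0.16 (SD, n = 2) placed it low in the CHD7 list, where 2.84% of regions had a lower mean. H3K27ac lay 1.73 kb beyond the same end (11, 85843681 to 85844251), with folds of 2.93 and 3.09, and CHD7 library 2 but not library 1 had a peak over it. Both marks thus stood at the upper side of Tbx2, and they shared bases only through that peak of CHD7 library 2.

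Tbx4, 44.4 kb further up the chromosome, had more H3K27ac regions than any other member. Its CHD7 region 1.08 kb beyond the upper end (11, 85917181 to 85918124), with folds of 3.57 and 3.02, overlapped an H3K27ac region that began 343 bp from that end (11, 85916440 to 85917966, folds 2.41 and 3.12). The overlap came from the H3K27ac library 2 peak, as the library 1 peak ended short of the CHD7 region. By the strand of the promoter table this is the downstream end of Tbx4. A further CHD7 region 8.996 kb beyond the end (folds 3.12 and 2.79) had no H3K27ac in either library. H3K27ac regions 2.27 kb (folds 2.29 and 2.52) and 25.6 kb (folds 3.02 and 3.09) beyond it each overlapped a peak of CHD7 library 1 alone.

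On chromosome 5, Tbx3 and Tbx5 lie 112 kb apart and had 1 CHD7 region between them, at Tbx3. Tbx3 had an H3K27ac region 95 bp below its lower end (5, 119669935 to 119670439) with folds of 3.32 and 3.21, and CHD7 library 1, with a fold of 2.38, but not library 2 had a peak over it. The non-coding gene Tbx3os1 overlaps the region. The single CHD7 region of Tbx3, 28.5 kb below the gene and also overlapped by Tbx3os1, had folds of 2.997 and 3.23 and an H3K27ac peak in library 1 alone. An H3K27ac region 21.7 kb above Tbx3 (5, 119706413 to 119706990, folds 3.58 and 3.56), on the side of Tbx5, had no CHD7 peak in either library. Tbx5 itself had no boundary or body peak of any library. The H3K27ac region assigned to it lay 93.0 kb beyond its upper end, with folds of 4.24 and 3.72, and was close to the limit of 100 kb. Each CHD7 library had peaks nearest to Tbx5, 2 in library 1 and 1 in library 2, but none overlapped between them.

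Tbx6, the shortest of the 10 genes at 4.07 kb, was the only one with both marks at a boundary. Its CHD7 region (7, 126780180 to 126780634) had folds of 3.31 and 3.52 and overlapped an H3K27ac region (7, 126780246 to 126780653) with folds of 2.82 and 3.09. They lay 849 and 830 bp upstream of Tbx6 and over the end of its neighbour Ypel3, so the regions belong as much to Ypel3, and within 0.5 kb Tbx6 had neither. The promoter window of Tbx6 lay 599 bp from the CHD7 region.

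Tbx18 carried H3K27ac at its start. The region (9, 87729890 to 87731071), 1182 bp wide with folds of 3.096 and 3.07, lay inside the gene, 189 bp from the upper end, which is the start of this minus-strand gene, and 140 bp from the promoter window. A peak of CHD7 library 2 (fold 2.498) overlapped it and none of library 1 did. The only CHD7 region assigned to Tbx18 lay 8.91 kb upstream, overlapping the non-coding gene Gm36767, with folds of 2.45 and 2.24 and no H3K27ac. For Tbx15, a close relative of Tbx18, each CHD7 library had 1 peak at a different place and H3K27ac library 1 had 1 peak in the gene body, and none recurred. Tbx20 stood alone in having no peak of any library. The CHD7 region nearest to it lay 24.4 kb away, at the end of the neighbouring gene Dpy19l2, and the nearest H3K27ac region lay 217 kb away.

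The strongest region of the family for either mark lay beyond the end of Tbr1. The CHD7 region 1.53 kb beyond the downstream end (2, 61815643 to 61816478) had folds of 4.39 and 4.36 and −log10 q of 20.6 and 22.2. It overlapped an H3K27ac region (2, 61815661 to 61816417) with folds of 5.68 and 5.28 and −log10 q of 18.5 and 13.3. Of all regions of the same mark, 84.1% had a lower mean fold for CHD7 and 81.7% for H3K27ac. By contrast, the CHD7 region across the upstream end of the gene (2, 61802549 to 61803007), with folds of 2.22 and 1.94, was the weakest of the family, and 0.401% of CHD7 regions had a lower mean. The promoter window of Tbr1 lay 1196 bp from this region, inside the annotated gene. Inside the gene, 1.88 kb from the downstream end, H3K27ac had folds of 2.99 and 3.11 without CHD7.

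Eomes had the most CHD7 regions of the 10 genes, 3, and no H3K27ac region. Its lead depended on the assignment, since it had 2 within 50 kb, as many as Tbx4 and Tbr1, and 0 where non-coding genes could take regions too. CHD7 lay 1.53 kb (9, 118487660 to 118488341, folds 3.58 and 2.84) and 3.32 kb (9, 118489451 to 118489767, folds 3.14 and 2.29) beyond its downstream end. Both regions overlapped the non-coding gene Gm33460 and had no H3K27ac peak in either library. Library 1 was the higher one at both, and the folds averaged 3.21 ± 0.52 at the nearer and 2.72 ± 0.60 at the farther region (SD, n = 2). The remaining region, 87.9 kb upstream (9, 118389547 to 118390299), had folds of 3.92 and 3.45 and overlapped a peak of H3K27ac library 1 alone. Over all protein-coding genes, 91.4% had fewer CHD7 regions than the 3 of Eomes. The largest counts in the genome were 23 at Lrmda, 21 at Gm52481, 16 at Dnm3 and 15 each at Chd2 and Zfp608.

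**Figure D2:**
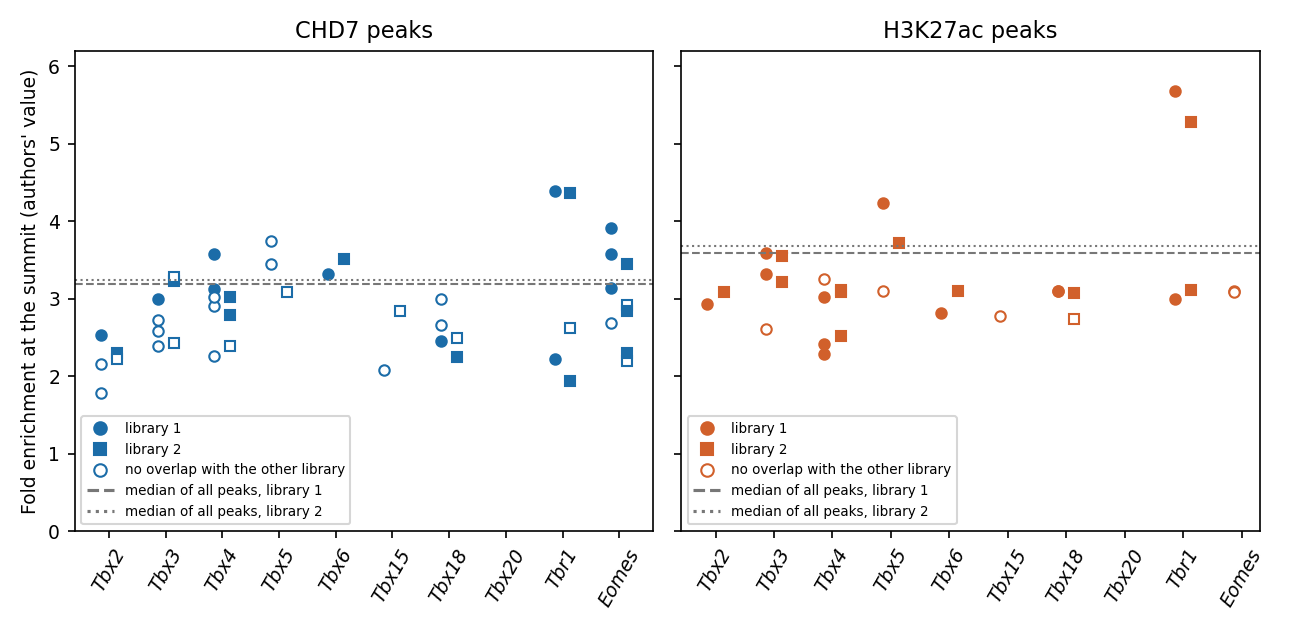
Fold enrichment at the summit of each T-box peak in CHD7 libraries (left) and H3K27ac libraries (right), by gene. Circles are library 1 and squares library 2, open symbols do not overlap a peak of the other library, and lines give the median of all peaks of each library; the Tbr1 peaks at folds of 4.39 and 4.36 (CHD7) and 5.68 and 5.28 (H3K27ac) are the highest of each panel.

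In each CHD7 and H3K27ac library, the median fold of the T-box peaks was below that of the whole list. It was 2.90 and 2.79 in CHD7 libraries 1 and 2, against 3.19 and 3.24 over all peaks, and 3.09 and 3.099 in H3K27ac libraries 1 and 2, against 3.59 and 3.68. Recurrence between libraries was 11 of 25 T-box peaks (44.0%) in CHD7 library 1, against 65.1% of its whole list, and 11 of 21 (52.4%) in library 2, against 76.6%. For H3K27ac, 12 of 18 (66.7%) in library 1 and 11 of 12 (91.7%) in library 2 recurred, against 75.8% and 81.3%, so that the T-box share was the lower one in 3 of the 4 libraries. Among regions, 2 of 11 CHD7 and 1 of 11 H3K27ac lay above the median of mean fold of their list, which was 3.46 for CHD7 and 4.06 for H3K27ac. The CHD7 pair consisted of the Tbr1 region and the distant Eomes region, and the H3K27ac one was that of Tbr1. The H3K27ac list median differed by class, at 4.46 at boundaries, 3.47 inside genes and 3.37 outside them. The CHD7 medians were 3.58, 3.26 and 3.41. Outside genes, the H3K27ac regions above Tbr1, Tbx5 and Tbx3 (mean folds 5.48, 3.98 and 3.57) exceeded the median of their class. The remaining H3K27ac regions lay below that of theirs, and for CHD7 the same pair lay above. These values come from a few regions of the same libraries and were not tested.

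**Figure D3:**
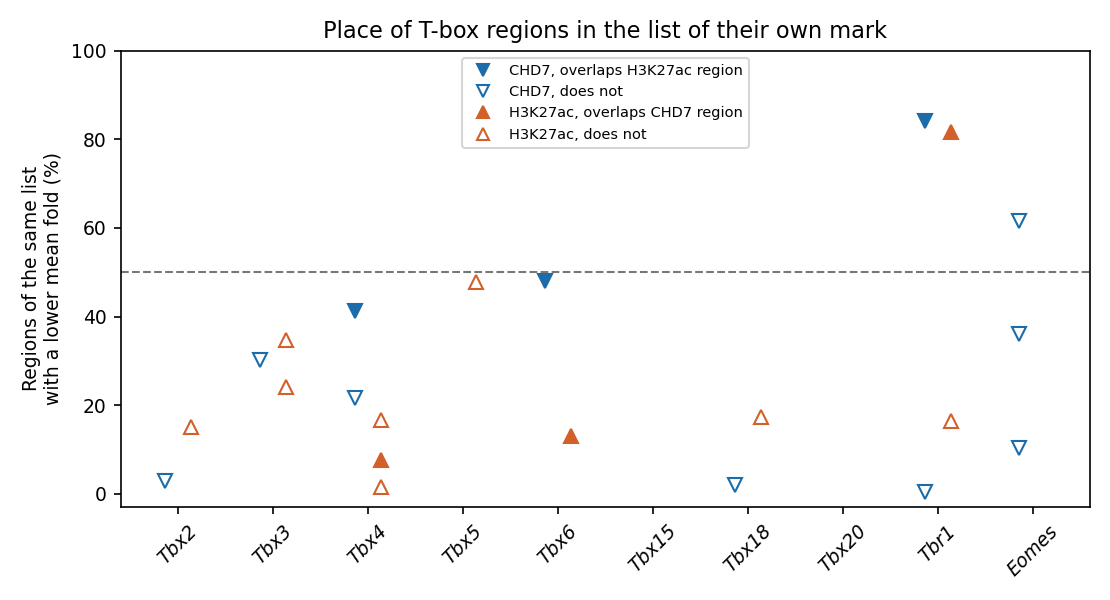
Percent of all regions of the same mark with a lower mean fold, for each CHD7 region (downward triangles) and H3K27ac region (upward triangles) of the T-box genes. Filled symbols overlap a region of the other mark and the dashed line is the middle of the list; the Tbr1 regions stand at 84.1% and 81.7%, and Tbx15 and Tbx20 have no region.

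Few regions of the family carried both marks. H3K27ac regions overlapped 3 of the 11 CHD7 regions (27.3%), at Tbr1, Tbx4 and Tbx6, where 60.4% of all CHD7 regions overlap H3K27ac. With all RefSeq genes in the assignment it was 3 of 6 (50%). Over all CHD7 regions that share was 80.4% at boundaries, 44.3% inside genes and 34.9% outside them. Of the 11 T-box regions, 3 lay at boundaries and 8 outside protein-coding genes, while 51.1% of all CHD7 regions lie at boundaries. H3K27ac overlapped 1 of those 3 and 2 of those 8. In the other direction, CHD7 regions overlapped 3 of the 11 H3K27ac regions, where 66.8% of all H3K27ac regions overlap CHD7. These were 2 of 4 at boundaries (72.0% of all), 0 of 1 inside genes (57.4%) and 1 of 6 outside them (58.1%), and 63.2% of all H3K27ac regions lie at boundaries. A peak of 1 CHD7 library lay over 5 further H3K27ac regions, giving 8 of 11, where 84.9% of all H3K27ac regions overlap a CHD7 peak of either library. For CHD7 the same count was 5 of 11, against 70.4%. The H3K27ac regions without a CHD7 peak in any library were those in the Tbr1 body, 21.7 kb above Tbx3 and 93.0 kb above Tbx5.

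A further comparison told the ends of the genes apart. Where the promoter table gives the strand (6 members), 3 of 5 CHD7 regions and 4 of 6 H3K27ac regions within 2.5 kb of an end lay nearer the downstream end. Over all protein-coding genes of known strand, 17.1% of such pairs of a CHD7 region and a gene did, and 12.2% of such H3K27ac pairs. Among genes longer than 5 kb it was 15.9% and 10.8%. A region near several genes counts once for each. The CHD7 regions concerned were those of Tbr1, Eomes and Tbx4, at 1.53, 1.53 and 1.08 kb, all just outside the limit of 1 kb. The H3K27ac regions were at Tbr1 and Tbx4, 2 at each. This comparison was chosen after the regions had been seen and rests on few regions, so it was not tested.

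Over libraries, the share of T-box peaks within 1 kb of a gene end came to 28.0% in CHD7 library 1 and 23.8% in library 2, against 27.8% and 33.3% in H3K27ac libraries 1 and 2. The means were 25.9% ± 2.96 for CHD7 and 30.6% ± 3.93 for H3K27ac (SD, n = 2 each), and the ranges of the groups overlapped. The difference of −4.65 percentage points did not exceed the spread, with an exact permutation p of 0.667 (two-sided) in a design that cannot give less than 0.333. The whole CHD7 lists stood at 42.5% and 46.7%, and the whole H3K27ac lists at 53.9% and 55.5%.

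T-box genes outside the 10 members were counted in the same way, beside 44.2% of all protein-coding genes for CHD7, 47.6% for H3K27ac and 39.3% for both. Of 7 (Tbx1, Tbx10, Tbx19, Tbx21, Tbx22, the Brachyury gene T and Mga), CHD7 lay at a boundary of 2 and H3K27ac of 2, and 1 had both. That gene was Mga, which encodes a MAX-binding protein with a T-box, with CHD7 folds of 7.54 and 6.14 and H3K27ac folds of 8.32 and 8.73. Tbx21, known from T lymphocytes, had CHD7 alone (folds 2.96 and 3.97), and Tbx10 had H3K27ac alone (4.11 and 4.93). Tbx1, the gene of the pharyngeal arches in the DiGeorge interval, had no region of either mark assigned to it, nor had T, Tbx19 and Tbx22. By any assignment, CHD7 regions were found at 2 of the 7 and H3K27ac regions at 2. Over all protein-coding genes, these shares were 55.6% and 56.6%.

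Genes that work with T-box factors and genes downstream of them can be set beside the same shares. Among 16 partners and cofactors, CHD7 lay at a boundary of 9, H3K27ac of 10 and both of 7. The 3 with the highest CHD7 folds were the histone deacetylase genes Hdac2 (6.66 and 5.72) and Hdac1 (5.29 and 4.25) and the corepressor gene Tle4 (4.27 and 3.54). Among 22 target genes, CHD7 lay at a boundary of 5, H3K27ac of 5 and both of 3. Ripply2, a repressor of somite formation genes (folds 3.27 and 3.52), Mycn (3.35 and 3.05) and Hcn4, the pacemaker channel gene (2.27 and 3.88), had the highest mean CHD7 folds of the targets. The place of Hcn4 rested on library 2, as in library 1 it was the lowest of the 5, below the connexin gene Gja1 (3.31 and 2.63) and Bmp2 (3.33 and 2.62). H3K27ac lay at a boundary of Gja1 and Hcn4 too, and not of Bmp2. Other cardiac targets, Nppa, Nppb, Gja5, Myl7 and Bmp10, had no region of either mark assigned. The difference between these lists was not tested.

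**Figure D4:**
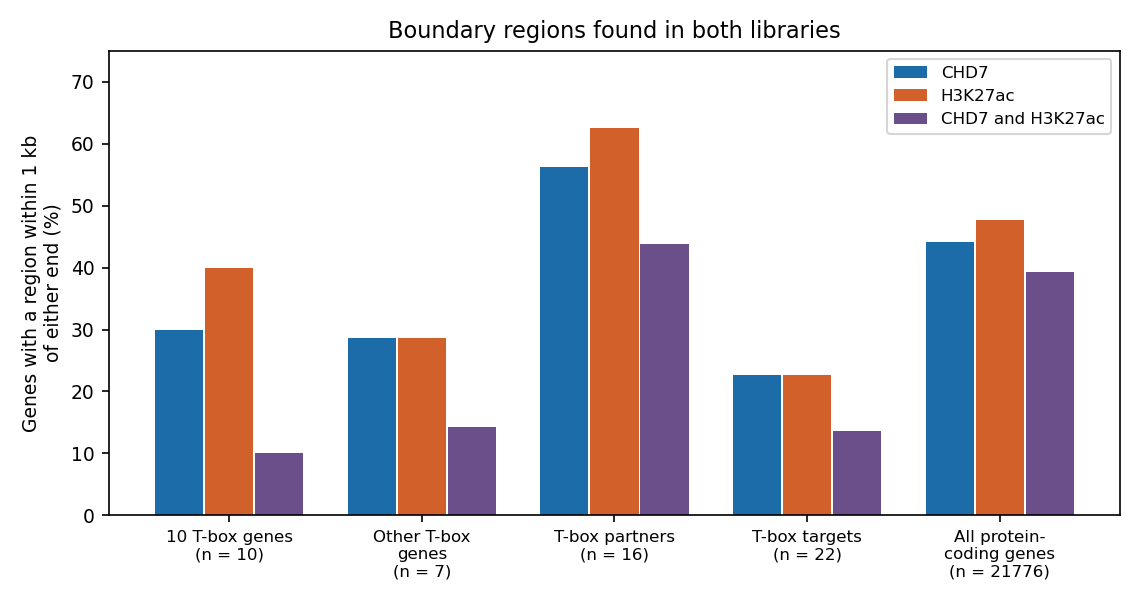
Percent of genes with a CHD7 region, an H3K27ac region or both within 1 kb of either end, for the 10 T-box genes, 7 other T-box genes, 16 partners, 22 targets and all 21776 protein-coding genes; regions were found in both libraries. The T-box genes stand at 30.0%, 40.0% and 10%, and all protein-coding genes at 44.2%, 47.6% and 39.3%.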

How the data were processed

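Per the submitters' processing notes, MACS2 2.1.2, Bowtie2 2.3.3.1, bcl2fastq 2.18.0.12 and Picard were used, with the build mm10. The authors deposited 1 peak list per library, not pooled. The deposited fold enrichment is a ratio at the summit, and the deposited p-value and q-value of each peak are given as −log10. The deposited score is 10 times the −log10 q cut to a whole number, apart from 3 rows of CHD7 library 1 and 1 row of CHD7 library 2. The lowest −log10 q lay between 1.30 and 1.37. The sources used here do not say how the input entered the calls.

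Rows with the same interval were joined, keeping the highest fold and q, and chromosomes 1 to 19, X and Y were used. Overlap meant at least 1 bp. The gene table has no strand or exons, so strand came from the promoter table. Of 21900 protein-coding genes, 124 listed at a start within the gap that opens the mm10 chromosomes were left out, as their coordinates belong to other sequence. Assignment and overlap were tested on simulated regions. Python 3.11.15, pandas 2.3.3 and scipy 1.17.1 were used. All 10 members are named, with every boundary region and the strongest distal ones; of the partner and target lists, the 3 genes of highest mean CHD7 fold at a boundary are named. Other partners, targets and marker genes named were chosen after their values were seen. Members and lists were chosen with earlier results of these data known. Alternatives covered the q limit, recurrence, both distances, the gene set, the overlap, input peaks and each library.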

Additional observations from a re-analysis of the deposited data

How the results depend on the processing

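Counts were small and moved with most limits. With a −log10 q of at least 10, CHD7 lay at a boundary of 0 genes, H3K27ac of 0 and both of 0. The Tbr1 regions remained, 1 CHD7 and 1 H3K27ac, so 100% of CHD7 regions overlapped H3K27ac. The boundary share (CHD7 minus H3K27ac) turned to 25.0 percentage points. That value rested on a single boundary peak, the Tbx6 peak of CHD7 library 2 (−log10 q 10.2), as its match in library 1 (9.54) fell below the limit. With a peak in either library, CHD7 lay at 7 genes, both marks at 3, and there were 35 CHD7 and 18 H3K27ac regions. Within 0.5 kb, both marks lay at 0 genes. Within 2.5 kb, CHD7 lay at 5 and both at 4, and the boundary share was −16.0 percentage points (exact permutation p 0.333, the smallest possible). For these limits on q, recurrence and distance, the share of all protein-coding genes was not computed. The gene counts under them therefore cannot be set against the 44.2%, 47.6% and 39.3% given above. With all RefSeq genes, 6 CHD7 regions were assigned, since non-coding genes took others, 50% of the 6 overlapped H3K27ac, and the boundary share turned to 2.78 percentage points (exact permutation p 0.667). Leaving out each library gave 3 to 7 genes with CHD7 at a boundary, 4 with H3K27ac, 1 to 3 with both, 11 to 25 CHD7 regions, 11 to 18 H3K27ac regions, an overlap of 23.8% to 36.4% and a boundary share between −7.43 and −1.87 percentage points. The counts of 7 genes and 25 regions came without CHD7 replicate 2, and those of 4 genes and 21 regions without CHD7 replicate 1. Counting a lone library drops the demand for recurrence, which adds regions. With the replicate block the boundary share was −4.65 percentage points (exact sign-flip permutation p of 1, where 0.5 is the smallest). Libraries share only a number. Beyond what these limits remove or add by construction, the cause of the changes was not tested. Among single genes, 50 of 240 counts of regions per mark and alternative moved by over 1.5 times, and many of the rest could not move by construction.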

Other observations

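The protein-coding genes next to the T-box genes on the chromosome were counted in the same way as the family. Of 16 such flanking genes that are no members, 12 had CHD7 within 1 kb of an end, 10 had H3K27ac and 10 had both, against 44.2%, 47.6% and 39.3% of all protein-coding genes. Ypel3, the lower neighbour of Tbx6, shared its 1 CHD7 boundary region and 1 of its 2 H3K27ac boundary regions with Tbx6. Psmd14, a proteasome gene 2.49 kb below Tbr1, had mean folds of 4.12 for CHD7 and 5.72 for H3K27ac. Wars2, a mitochondrial tryptophan tRNA ligase gene 19.1 kb below Tbx15, had 4.12 and 4.74, and Golga4, 20.1 kb above Eomes, had 4.81 and 4.84. Herpud2, the next gene above Tbx20, had 4.10 and 6.31. Slc4a10, Spag17 and Nt5e, the upper neighbours of Tbr1, Tbx15 and Tbx18, and LOC115486419, the lower neighbour of Eomes, had neither. The flanking genes were looked up after the T-box values had been seen, and the difference was not tested.

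Most of the family lies in wide gaps between genes. The territory of a gene, its body with the ground up to midway to the next protein-coding gene, at least 1 kb and at most 100 kb on each side, had a median of 144 kb for the T-box genes, against 46.95 kb for all protein-coding genes. Territories of the T-box partners (144 kb), neural crest markers (146 kb) and endothelial markers (156 kb) were as wide. In the other lists the median lay between 28.4 kb (cardiomyocyte) and 96.5 kb (pharyngeal epithelium). Per 100 kb of territory the median was 1.11 CHD7 and 0.807 H3K27ac regions for the T-box genes, against 0.694 and 0.717 for all. The partners stood at 1.15 and 0.719, the neural crest markers at 1.09 and 0, and no remaining list was above 0.905 and 0.946. Genes without any region lower such a median. An assigned CHD7 region was found at 55.6% and an H3K27ac region at 56.6% of all genes, and each at 7 of the 10 T-box genes. The mean number of regions per gene was 1.1 for each mark at the T-box genes, against 0.958 CHD7 and 0.905 H3K27ac regions over all. The T-box means per gene came from wider territories. The share of genes without any region also differed, so the medians alone do not show a higher density. Tbx6, with a territory of 6.07 kb, stood at 16.5 for both marks from a single region of each, and Tbx5, with 245 kb, at 0 for CHD7 and 0.409 for H3K27ac.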
